A study of Bos taurus with 15 samples.

Results

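COL15A1 (ENSBTAG00000010082.6) and COL6A3 (ENSBTAG00000030190.4) encode collagens that do not build the banded fibrils of connective tissue. These 2 genes, of the 21665 in the count table, were chosen by their fold changes against control, up with WT ARGFX and down with LEUTX, so their levels with these constructs are a description and were not tested. Both passed the filter on low counts, which left 14264 genes for testing.

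Collagen XV is a proteoglycan of the basement membrane zone, where it lies around blood vessels, muscle and nerves, and its C-terminal part can be released as a fragment related to endostatin. Collagen VI is a heterotrimer whose alpha 3 chain, the product of COL6A3, joins the alpha 1 and alpha 2 chains, and its tetramers assemble into beaded microfibrils that link cells to the surrounding matrix. Fibroblasts of the skin and of other connective tissues are a main source of collagen VI.

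The cells were primary bovine fetal fibroblasts (BFFs), whose RNA was sequenced. They were grown from the torso skin of a single Bos taurus fetus aged 6 months and used at passage 4, then electroporated with the empty pSF-CMV-Puro-COOH vector (control, 4 samples), wild-type (WT) bovine ARGFX (4 samples), a mutant bovine ARGFX allele (3 samples) or bovine LEUTX (4 samples). All groups received puromycin at 4 µg/ml, which selects for transfected cells, and RNA was taken after 72 h. ARGFX and LEUTX are PRD-class homeobox genes of the early embryo, here expressed from a constitutive promoter with a FLAG tag, and the mutant allele carries a frameshift that removes the homeodomain. Since the cells came from 1 fetus and the labels do not state separate cultures, the spread between samples is not that between animals and may be technical.

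Each library held between 25947911 and 41554242 expected counts in all. A pair of WT ARGFX samples carry no distinct replicate number in the table and are called unnumbered below. The transfected genes followed the labels. ARGFX lay between 3039 and 4506 CPM (expected counts scaled to a common library size, after TMM normalisation) in WT ARGFX samples, between 3408 and 6606 CPM in mutant ARGFX samples and at no more than 0.20 CPM in the other samples. LEUTX lay between 1314 and 1781 CPM in LEUTX samples and at no more than 0.39 CPM elsewhere. Of the fibroblast markers fixed for this check, 4 of 10 had an identifier, and COL1A1, COL1A2, COL3A1 and FN1 each reached at least 1465 CPM in every sample. Marker lists of keratinocytes, endothelial cells, leukocytes and adipocytes were not analysed here. In bulk RNA, fewer cells of a type and less RNA per cell cannot be told apart.

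COL15A1 was raised with both forms of ARGFX and was lowest with LEUTX. In the control samples its level was 84.9, 91.8, 96.2 and 102 CPM. With LEUTX it was 24.9, 29.2, 35.7 and 36.7 CPM. With WT ARGFX it was 138, 158, 186 and 200 CPM. These 3 groups did not overlap: the highest LEUTX sample held less COL15A1 RNA than the lowest control sample, which lay 2.32-fold above it, and the lowest WT ARGFX sample lay 1.35-fold above the highest control sample. With mutant ARGFX the level was 144, 148 and 166 CPM, inside the range of the WT ARGFX samples. The order of the means was therefore LEUTX (31.6 ± 5.56 CPM, SD, n = 4), control (93.8 ± 7.33 CPM, SD, n = 4), mutant ARGFX (153 ± 11.8 CPM, SD, n = 3) and WT ARGFX (171 ± 28.1 CPM, SD, n = 4), and only the last pair of neighbours overlapped.

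COL6A3 showed the same order with a wider spread. Its level was 877, 997, 1266 and 1417 CPM in the control samples. LEUTX samples held 467, 545, 747.3 and 776 CPM, all below the lowest control sample, which exceeded the highest of them 1.13-fold. In WT ARGFX samples it was 1368, 2124, 2314.7 and 2592 CPM. The lowest of these was an unnumbered sample, and it lay just under the highest control sample, whereas the other WT ARGFX samples were above all control samples. Mutant ARGFX samples held 1583, 1804 and 1925 CPM, above every control sample and within the WT ARGFX range. The means were 634 ± 151 CPM with LEUTX, 1139 ± 246 CPM in the control samples and 2099.9 ± 524 CPM with WT ARGFX (SD, n = 4 each), and 1771 ± 174 CPM with mutant ARGFX (SD, n = 3). Levels of the 2 collagens are not compared with each other, because CPM are not scaled to transcript length.

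**Figure D1:**
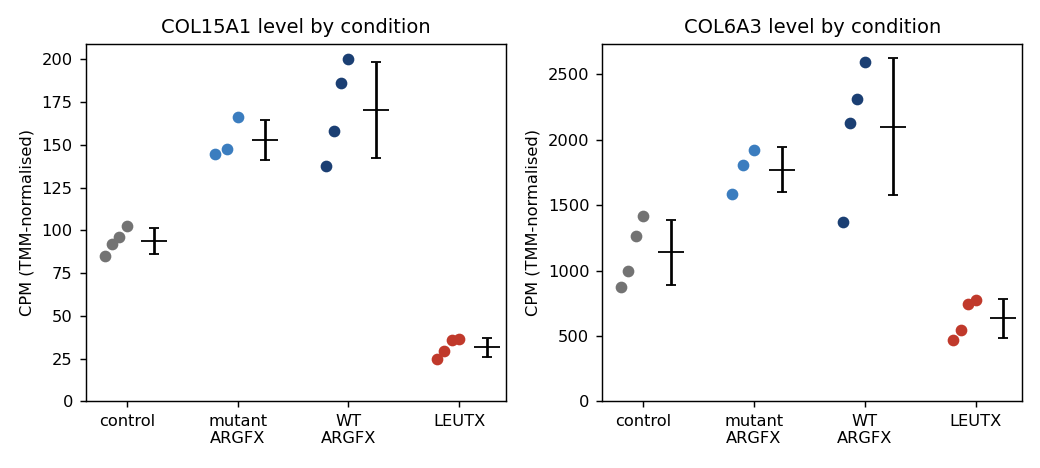
Level of COL15A1 (left) and COL6A3 (right) in CPM after TMM normalisation, by condition. Each point is a sample, and the bar beside the points gives the mean and SD. For both genes the LEUTX samples lie below all control samples, and the COL6A3 values with WT ARGFX run from 1368 to 2592 CPM.

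WT ARGFX raised both collagens by nearly the same factor. The log2 fold change against control was 0.86 (standard error 0.13) for COL15A1 and 0.88 (standard error 0.20) for COL6A3, from edgeR's fit to all 15 samples. Without the unnumbered WT ARGFX sample of lowest COL6A3 level these values were 0.94 and 1.03. Of all genes tested, 6.15% were called up with WT ARGFX at an adjusted p-value under 0.05 and a fold change over 1.5, and 12.9% were higher in every WT ARGFX sample than in every control sample. Among the fold changes of all genes tested with WT ARGFX, 3.34% exceeded that of COL15A1 and 3.11% that of COL6A3.

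With LEUTX the fall was larger for COL15A1. The log2 fold change against control was -1.57 (standard error 0.13) for COL15A1, a 2.97-fold lower level, and -0.85 (standard error 0.20) for COL6A3, a 1.80-fold lower level. Among all genes tested, 14% were called down with LEUTX, 21.5% were lower in every LEUTX sample than in every control sample, and 4.08% had a lower fold change than COL15A1, against 10.4% for COL6A3. Genes called up with WT ARGFX and down with LEUTX numbered 63 in all (0.442% of those tested). Within these, COL15A1 had the 9th lowest fold change with LEUTX and COL6A3 the 38th. These values share their control samples with those for WT ARGFX.

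**Figure D2:**
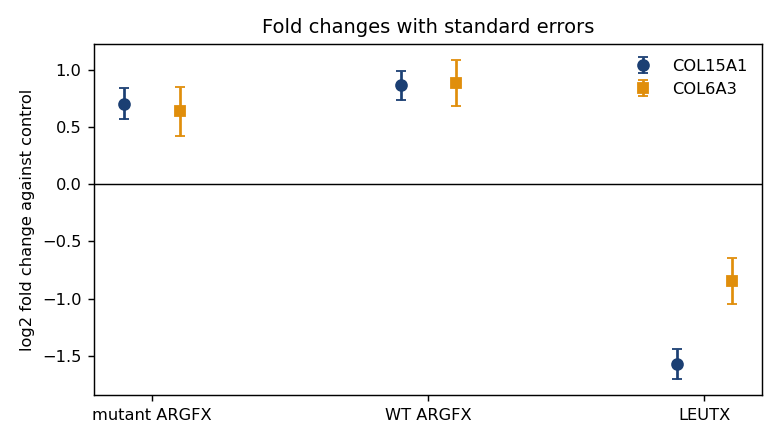
Log2 fold change against control of COL15A1 (circles) and COL6A3 (squares) with mutant ARGFX, WT ARGFX and LEUTX, with standard errors from edgeR's fit. The values with WT ARGFX are 0.86 and 0.88, and those with LEUTX are -1.57 and -0.85.

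The mutant ARGFX samples played no part in the choice of these genes, so that comparison could be tested. It uses the same 4 control samples as the comparisons that chose them, so its direction is not independent of the choice. COL15A1 rose by 62.8% in mean CPM (log2 fold change 0.70 ± 0.14, SE; quasi-likelihood test of edgeR, adjusted p = 0.00402), and all 3 mutant ARGFX samples lay above all 4 control samples. COL6A3 had a log2 fold change of 0.64 ± 0.22 (SE) and did not pass the threshold (edgeR, adjusted p = 0.0729), although its 3 mutant ARGFX samples were also above all control samples. Such a separation was seen in 11.6% of all genes tested, and 1.26% were called up with mutant ARGFX. Among the 220 genes with a symbol, which like both collagens were listed by the authors as up with WT ARGFX, 33.6% were called up with mutant ARGFX and the median log2 fold change was 0.56. The call for COL6A3 depended on the fit. Its adjusted p stayed above 0.05 in 17 of 23 alternatives, reaching 0.211 without mutant ARGFX replicate 1 (edgeR). The call was made with DESeq2 (adjusted p = 0.0312) and with only the groups compared in edgeR's fit (adjusted p = 0.0465). Leaving out control replicate 3 (adjusted p = 0.0464) also gave a call. So did leaving out the unnumbered WT ARGFX sample of lowest COL6A3 level (adjusted p = 0.0238). With a surrogate variable as a covariate the adjusted p was 0.000222, but the log2 fold change of 0.50 was too small for a call.

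WT ARGFX and mutant ARGFX samples overlapped for both collagens. The log2 difference was 0.16 (standard error 0.14) for COL15A1 and 0.25 (standard error 0.22) for COL6A3, higher with WT ARGFX. It moved with single libraries, to 0.07 and 0.13 without WT ARGFX replicate 2, to 0.11 and 0.16 without mutant ARGFX replicate 2, and to 0.24 and 0.40 without the unnumbered WT ARGFX sample of lowest COL6A3 level. Over the numbered samples it was 0.33 for COL15A1 and 0.46 for COL6A3 without the replicate block and 0.31 and 0.48 with it. These values involve the WT ARGFX samples that chose the genes and were not tested.

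The 2 collagens can also be set against each other inside each library, where normalisation cancels out. In the control samples there were 10.3, 10.9, 12.4 and 14.7 COL6A3 counts for each COL15A1 count. The ratio was 9.94, 12.4, 12.9 and 13.4 with WT ARGFX and 10.96, 11.6 and 12.2 with mutant ARGFX, so that these 3 groups overlapped. With LEUTX it was 18.6, 18.8, 21.0 and 21.2, above every other library. The mean ratio was 12.1 ± 1.97 in the control samples, 12.2 ± 1.55 with WT ARGFX and 19.9 ± 1.36 with LEUTX (SD, n = 4 each), and 11.6 ± 0.63 with mutant ARGFX (SD, n = 3). It compares counts and not molecules, since COL6A3 and COL15A1 transcripts differ in length.

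**Figure D3:**
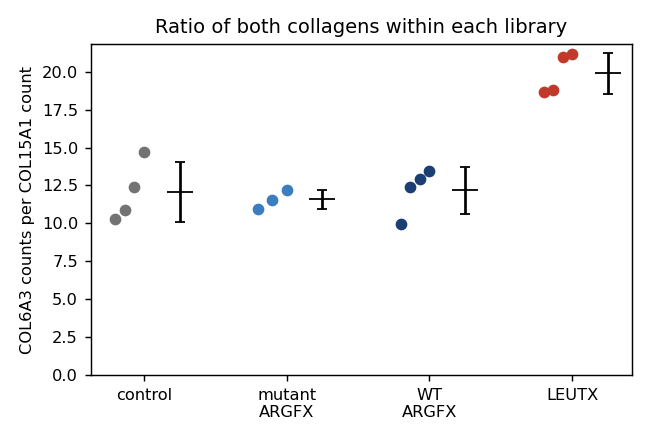
Number of COL6A3 expected counts for each COL15A1 expected count in every library, by condition, with the mean and SD beside the points. The LEUTX libraries lie between 18.6 and 21.2, and the other libraries between 9.94 and 14.7.

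Within a condition, samples with more COL15A1 RNA also held more COL6A3 RNA. The sample lowest in COL15A1 was lowest in COL6A3 in all 4 groups, and in the WT ARGFX, mutant ARGFX and LEUTX groups the whole order was identical. After the group mean was subtracted from each log2 CPM, which removes what chose the genes, the deviations of both genes were correlated over the 15 samples (Pearson r = 0.91, p = 0.00015, and Spearman rho = 0.91, p = 0.00038, two-sided permutation tests within groups). This was the only relation tested. Without the 2 samples farthest from the median in COL15A1, r was 0.89. Of all genes tested, 99.9% had a lower within-group correlation with COL15A1 than COL6A3 had.

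COL6A3, more than COL15A1, followed a general axis of variation between samples of the same condition. The first principal component of the deviations of all other genes held 35.4% of the variance within groups. Its score had a Pearson correlation of 0.93 with the COL6A3 deviations and 0.73 with those of COL15A1 over the 15 samples, given as a description because the measures share their libraries. The sign of the score was set to be positive with COL6A3, and the share of other genes that follow it as closely is not reported here. The unnumbered WT ARGFX sample with the lowest COL6A3 level had the lowest score (-43.2) and control replicate 3, with the highest COL6A3 level of its group, the highest (35.7). The number of genes detected, as deviations from the group mean, had a correlation of 0.72 with the COL6A3 deviations and 0.48 with those of COL15A1. For library size these values were -0.04 and -0.09. With a surrogate variable for hidden variation removed from both genes, their within-group correlation was 0.95, and the COL6A3 fold changes were 0.82 with WT ARGFX and -0.96 with LEUTX on the log2 scale, with standard errors of 0.08 each. The SD of log2 CPM within groups was 0.33 for COL6A3 and 0.20 for COL15A1, and the median over the 200 genes nearest in level was 0.22 and 0.15, respectively.

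**Figure D4:**
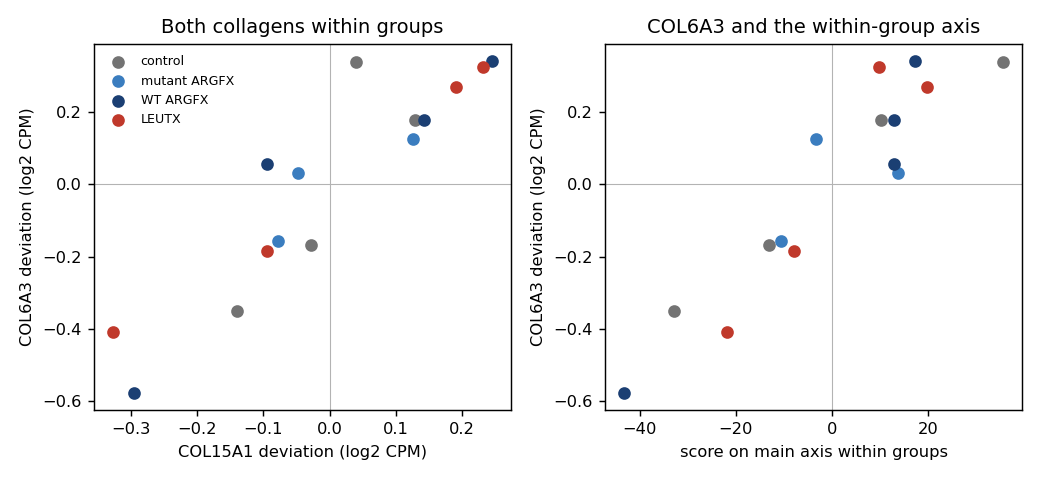
Deviation of COL6A3 from its group mean in log2 CPM, against the deviation of COL15A1 (left) and against the score on the first principal component within groups (right). Each point is one of the 15 samples, coloured by condition. Points rise from lower left to upper right in both panels, with r = 0.91 and 0.93. The sign of the score was set to be positive with COL6A3.

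Other genes of the collagen matrix were taken from 7 lists of 125 symbols, of which 32 had an identifier. Identifiers were paired with symbols through part of the authors' list of genes upregulated with WT ARGFX. That list was made on these samples, so the direction with WT ARGFX is no finding. Of the 33 non-fibrillar collagens listed, only COL15A1 and COL6A3 had an identifier, so the others were not examined. Apart from COL15A1 and COL6A3, 30 genes remained, all of them called up with WT ARGFX. With LEUTX, 15 of the 30 were called up, 4 down and 11 neither way, against 12.8% up and 14% down among all genes tested. The matching background is all 220 genes with a symbol, both collagens among them, of which 53.2% were called up and 6.82% down with LEUTX, so the share of the matrix genes called up was near that of the genes chosen in the same way. The median log2 fold change with LEUTX was 0.56 over the 30 genes and 0.65 over the 220. All these genes share the control samples with the comparison that chose them.

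Among the 6 fibrillar collagen genes with an identifier, of 11 listed, COL3A1 was the one called down with LEUTX. Of the 220 genes with a symbol, 6.82% were called down and 53.2% up. COL3A1, the chain of collagen III, went from 2775 ± 318 CPM in the control samples to 1813 ± 323 CPM with LEUTX (SD, n = 4 each, log2 fold change -0.61, edgeR adjusted p = 0.00151). COL11A1, which regulates the width of fibrils, rose by 1.81 on the log2 scale and COL5A2 by 0.70, both called up. COL1A1 and COL1A2, which form collagen I, had log2 fold changes of 0.32 and 0.52, and COL5A1 had -0.35, none of them called.

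Of the 18 basement membrane genes listed, 3 had an identifier. PXDN, whose product cross-links collagen IV, was called up with LEUTX (log2 fold change 0.72). LAMA4, a laminin chain, and NID2, a nidogen that bridges laminin and collagen IV, had 0.28 and 0.47 and were not called. None of these 3 genes was called down with LEUTX. Of the 220 genes with a symbol, 53.2% were called up and 6.82% down, and COL15A1 was itself chosen for its fall.

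The 3 collagen receptor genes with an identifier, of 11 listed, did not fall with LEUTX either. Of the 220 genes with a symbol, 6.82% were called down. CSPG4, a cell-surface proteoglycan that binds collagen VI, rose by 1.32 on the log2 scale and MRC2, an endocytic receptor for collagen, by 0.77, while ITGA11, an integrin chain that binds fibrillar collagen, had 0.21 and was not called. The log2 fold changes of CSPG4, MRC2 and ITGA11 with mutant ARGFX were 0.70, 0.83 and 1.17. Each was called up, as were 33.6% of the 220 genes with a symbol.

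The 4 collagen synthesis genes with an identifier, of 23 listed, were called up with LEUTX, as were 117 of the 220 genes with a symbol. Their log2 fold changes ran from 0.60 for PYCR1, an enzyme of proline synthesis, to 1.70 for P3H2, a prolyl 3-hydroxylase. SEC24D, a coat protein for the export of procollagen from the endoplasmic reticulum, rose by 0.77, and CREB3L2, a transcription factor of the secretory pathway, by 1.12.

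Of the 10 genes of other matrix proteins with an identifier, 4 were called up and 2 down with LEUTX. Among the 220 genes with a symbol, 53.2% were called up and 6.82% down. FN1 (fibronectin) rose by 1.56 and SERPINE2, a protease inhibitor, by 3.17 on the log2 scale. POSTN (periostin) and SOD3 (extracellular superoxide dismutase) were called down, at -0.67 and -0.69. MXRA5 had -0.63 with a standard error of 0.32 and did not pass (edgeR adjusted p = 0.124). In the degradation list, MMP3 and MMP12 were called up with LEUTX and ADAM12 down (log2 fold change -0.78), while MMP28 had 0.33 and was not called. COL15A1 had the lowest LEUTX fold change of the 32 matrix genes and COL6A3 the next. Both were chosen by their fall with LEUTX and the others were not, so the choice favours this ranking.

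With mutant ARGFX, 11 of the 30 genes were called up and none down by edgeR and the same thresholds, and 29 of the 30 fold changes were positive. Of the 220 genes with a symbol, 74 (33.6%) were called up, none down, and 215 had a positive fold change, beside 1.26% called up and 2.57% down among all genes tested. The choice of these genes as up with WT ARGFX, against the same control samples, favours this direction, and the share of the matrix genes was near that of the 220. The called genes were COL3A1, COL11A1, PXDN, FBN1, CTHRC1, ITGA11, MRC2, CSPG4, SEC24D, MMP12 and ADAM12. The count fell to 4 without control replicate 4, to 4 without mutant ARGFX replicate 1 and to 6 without mutant ARGFX replicate 2. The median log2 fold change was 0.51 over the 30 genes, beside 0.70 for COL15A1 and 0.64 for COL6A3.

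**Figure D5:**
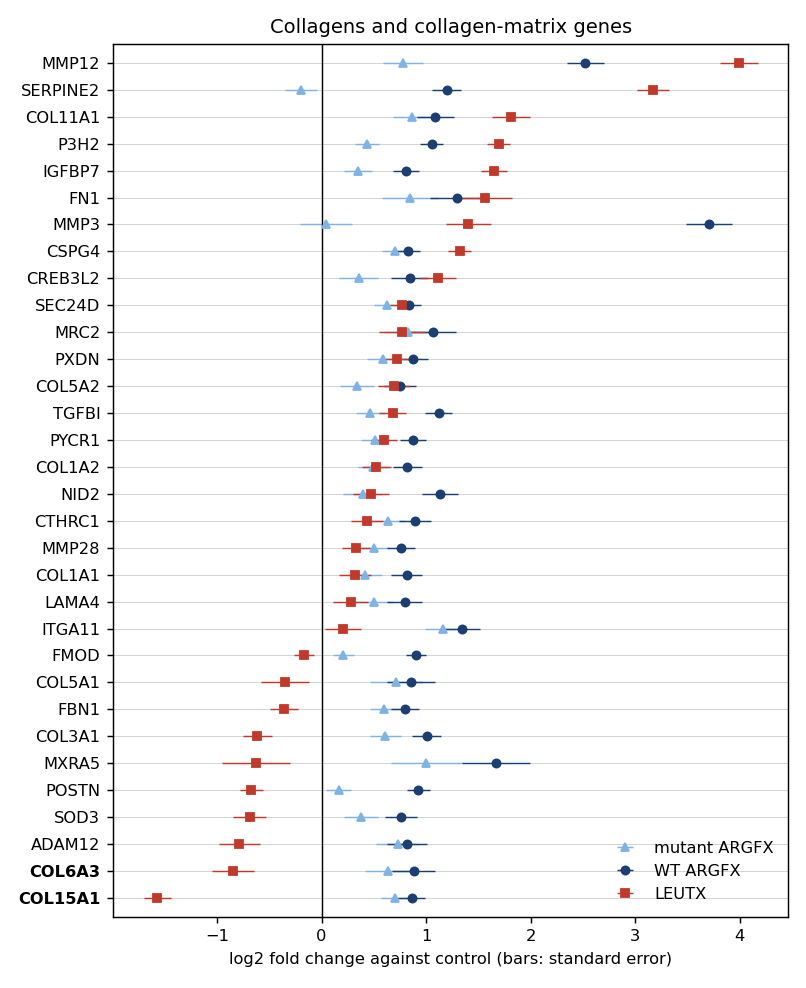
Log2 fold change against control with mutant ARGFX (triangles), WT ARGFX (circles) and LEUTX (squares) for the 32 collagen and collagen-matrix genes, sorted by the LEUTX value, with standard errors. COL15A1 at -1.57 and COL6A3 at -0.85 form the lower end with LEUTX, where MMP12 at 3.99 is highest. Both collagens were chosen by their fall with LEUTX.

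Smooth muscle and fibroblast markers could be named only where they were on the authors' list of genes up with WT ARGFX, so their higher level with WT ARGFX was set by that choice, and the other markers are in no sum. ACTA2, ACTG2, LMOD1 and SMTN, the 4 of 8 listed markers with an identifier, had a summed level of 757 to 1286 CPM in the control samples, 1506 to 1803 CPM with mutant ARGFX, 2370 to 3651 CPM with WT ARGFX and 4753 to 6097 CPM with LEUTX. Their log2 fold changes with LEUTX, where both collagens were lowest, ran from 1.64 for SMTN to 2.68 for ACTG2. The summed level of the 4 fibroblast markers was 27038 to 33499 CPM in the control samples, 38244 to 44502 CPM with mutant ARGFX, 48497 to 59450.5 CPM with WT ARGFX and 32626 to 50681 CPM with LEUTX. The part of either in the results for COL15A1 and COL6A3 was not tested.

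The tested genes with a symbol whose log2 CPM ran most parallel to COL15A1 over the 15 samples were TOP2A, a DNA topoisomerase of dividing cells (r = 0.97), COL6A3 (r = 0.96), COL3A1 (r = 0.95), ADAM12, a membrane protease (r = 0.93), and FBN1, the microfibril protein fibrillin (r = 0.92). TOP2A averaged 53.9 CPM in the control samples, 91.6 CPM with WT ARGFX, 72.8 CPM with mutant ARGFX and 27.8 CPM with LEUTX. For COL6A3 they included FBN1 (r = 0.97), MXRA5, COL15A1 and COL5A1 (r = 0.96 each). FBN1 averaged 843 CPM in the control samples, 1465 CPM with WT ARGFX, 1279 CPM with mutant ARGFX and 658 CPM with LEUTX, so its fall with LEUTX was smaller than that of COL6A3. Only 220 genes, all chosen for their rise with WT ARGFX, had a symbol. Among identifiers without one, ENSBTAG00000034147.4 and ENSBTAG00000014665.6 were nearest to COL15A1 (r = 0.99 each) and ENSBTAG00000008585.6 and ENSBTAG00000043981.3 nearest to COL6A3 (r = 0.99 each). These correlations describe libraries that share their conditions and carry no test.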

How the data were processed

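The authors filtered and trimmed the reads, pseudoaligned them with kallisto 0.46.1 to the ARS-UCD1.2 transcriptome with bovine ETCHbox sequences added, and made gene tables with tximport. The deposited values are expected counts per gene without normalization, and 93.08% of them are whole. Pseudoalignment could split reads between related collagen genes. Conditions came from the sample titles. Of the 15 sample columns in the count table, 13 carry a distinct replicate number. The remaining columns, both WT ARGFX, share a header, so which sample each holds is not known.

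Expected counts were rounded and fitted with edgeR 4.0.16 in R 4.3.3 (low-count filter, TMM normalization, 1 quasi-likelihood fit to all samples, Benjamini-Hochberg adjustment over 14264 genes). Calls needed an adjusted p-value under 0.05 and a fold change over 1.5. The authors' threshold on mean TPM was not used, since counts alone do not give TPM. Standard errors came from the fold change and its F statistic. Log2 CPM used a prior count of 2, and correlations 100000 permutations within groups. On simulated counts for mutant ARGFX against control, with 200 of 14264 genes changed 2-fold, edgeR recovered 84.5% with 6 false calls. DESeq2 recovered 89% with 23 false calls. The simulated counts were drawn independently for each gene, without the axis of variation shared within groups. The 2-fold change also exceeds the 1.63-fold of COL15A1 and the 1.55-fold of COL6A3 with mutant ARGFX. No 2 samples of a group agreed within sampling noise.

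The members and lists were chosen with earlier results of these data known. Named genes are both collagens, ARGFX and LEUTX, listed genes with an identifier, and for each collagen the 5 genes with a symbol and 2 identifiers of highest correlation. One gene that this rule names is not reported here. DESeq2 1.42.0 was run as an alternative, as were its size factors, scaling to library totals, no low-count filter, only the groups compared, a replicate block, a surrogate variable (sva 3.50.0), other thresholds and leaving out each sample. The numbered samples without the block were added after seeing the data. A mutant ARGFX sample that the authors excluded was not analysed here.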

Additional observations from a re-analysis of the deposited data

How the results depend on the processing

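Every fold change of COL15A1 and COL6A3 kept its direction under all 23 alternatives run for each. Those with WT ARGFX and LEUTX chose the genes, and the alternatives refit the same samples, so for them this is a description. The COL15A1 rise with mutant ARGFX passed the threshold under each alternative, with adjusted p-values from 3.18e-05 to 0.0264 (edgeR or DESeq2). For COL6A3 with mutant ARGFX, the log2 fold change was 0.63 with DESeq2 and 0.63 with only the groups compared. It was 0.64 over the numbered samples without the block and 0.50 with the surrogate variable. Each of these fits gave an adjusted p under 0.05, but the fold change with the surrogate variable was too small for a call. The log2 fold change ranged from 0.53 to 0.76 with one sample left out, and over all alternatives the adjusted p ran from 0.000222 to 0.211 (edgeR or DESeq2). The cause was not tested. The within-group correlation of both genes ranged from 0.89 to 0.95.

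Counts over all genes moved most with the threshold. Testing against a fold change of 1.5 gave 102 up and 368 down with WT ARGFX, 3 and 80 with mutant ARGFX, and 1032 and 1095 with LEUTX. Without a fold change threshold they were 2247 and 2167, 607 and 854, and 3155 and 3536. With a mean CPM over 5 they were 575 and 606 with WT ARGFX, 119 up with mutant ARGFX, and 1145 and 1263 with LEUTX. Leaving out one sample gave 105 to 250 genes up with mutant ARGFX, and 4 to 13 of the matrix genes.

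Pairs of samples that share a replicate number had deviations with a mean correlation of 0.01 (16 pairs), and 3 of 13 numbered samples correlated best with their own number. With the replicate block, COL15A1 had 0.65 and COL6A3 0.54 with mutant ARGFX on the log2 scale (adjusted p = 0.00459 and 0.0726 from edgeR's quasi-likelihood test). Genes up with mutant ARGFX numbered 154 with the block and 217 without it over the same samples.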
